A study of Rattus norvegicus with 20 samples.

Results

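Trimethylation of lysine 9 (K9me3) was compared between the left ventricle of a normal and of a failed heart of Dahl rats, a rat line bred for its blood pressure response to dietary salt. The description covers 4 of the 20 arrays of the series: chromatin immunoprecipitation (ChIP) with an antibody to trimethylated K9 in each heart, and genomic DNA taken before immunoprecipitation (pre-IP) from each heart. The labels give an age of 19 weeks for all 4, call the failing animal a rat with congestive heart failure and name a high-sodium diet for the mRNA sample of the failed heart only. They do not name the histone that carries lysine 9, and the study's design states 1 left ventricle specimen for each experiment. Each assay had 1 array in each heart, so the values come without replicate errors and no p-value was possible. A difference is one between a pair of arrays, and what else set these specimens apart was not tested.

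Trimethylated lysine 9 of histone H3 is the classical mark of heterochromatin, where it is bound by the HP1 proteins. One well known writer, SETDB1, is brought to DNA by TRIM28 and KRAB zinc finger proteins, and the clusters of zinc finger genes themselves are among its best known targets outside repeats. In muscle and other differentiated tissues the mark is associated with genes of other lineages that are kept silent. The arrays here were designed for transcripts and mostly probe their 3′ ends, so a value describes DNA within or near the end of a gene and not its promoter.

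Each array was scaled to a median of 100, and a level is the log2 of the scaled value. Enrichment is the ChIP level minus the pre-IP level of the same heart, so that 1 stands for 2-fold more signal after immunoprecipitation. A gene is said to carry K9me3 in both hearts where its enrichment was 1 or more in each, and to be low in both where it was -1 or less in each. The 4 arrays had deposited medians of 383 and 410 for K9me3 and 365 and 371 for pre-IP, in the normal and the failed heart. The floor of 10 was reached by 2.23% to 3.10% of an array's probe sets. A total of 14217 genes were measured, and 6992 of them passed a filter that asked for a mean over the 4 arrays of at least 100. Of the 8 markers of ventricular muscle that were measured, all 8 had mRNA above the array median in both hearts, as the tissue label has it. The labels call the mRNA that of myocytes, while markers of fibroblasts (8 of 8 in both hearts) and endothelium (6 of 6) were also above the median.

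K9me3 was carried in both hearts by 163 genes, 2.33% of the 6992 that passed the filter, and 339 genes were low in both, 4.85%. Low here means low against the gene's own pre-IP. The median K9me3 levels of the 339 without pre-IP lay 0.44 and 0.23 above those of all genes. Set against the array median in place of pre-IP, 1 gene was low in both hearts. The filter averages ChIP and pre-IP levels, so a high K9me3 level helps a gene to pass it, and with the filter on pre-IP alone 65 genes carried the mark. The class counts given below use every measured gene, without the filter. Zinc finger genes and homeobox, Pax and Sox genes made up a large share of the first group: 30 of the 163 were numbered zinc finger genes, 18.4% against 1.44% of all genes that passed, and 16 were homeobox, Pax or Sox genes, 9.82% against 0.76%. Histone genes stood at the other end. In each heart by itself about as many genes reached an enrichment of 1, 587 in the normal heart and 586 in the failed one. Spearman's rho of the enrichment in the normal heart with that in the failed heart was 0.43 across the 6992 genes. Only 29 genes had an enrichment of 1 or more in a heart and -1 or less in the other.

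**Figure D1:**
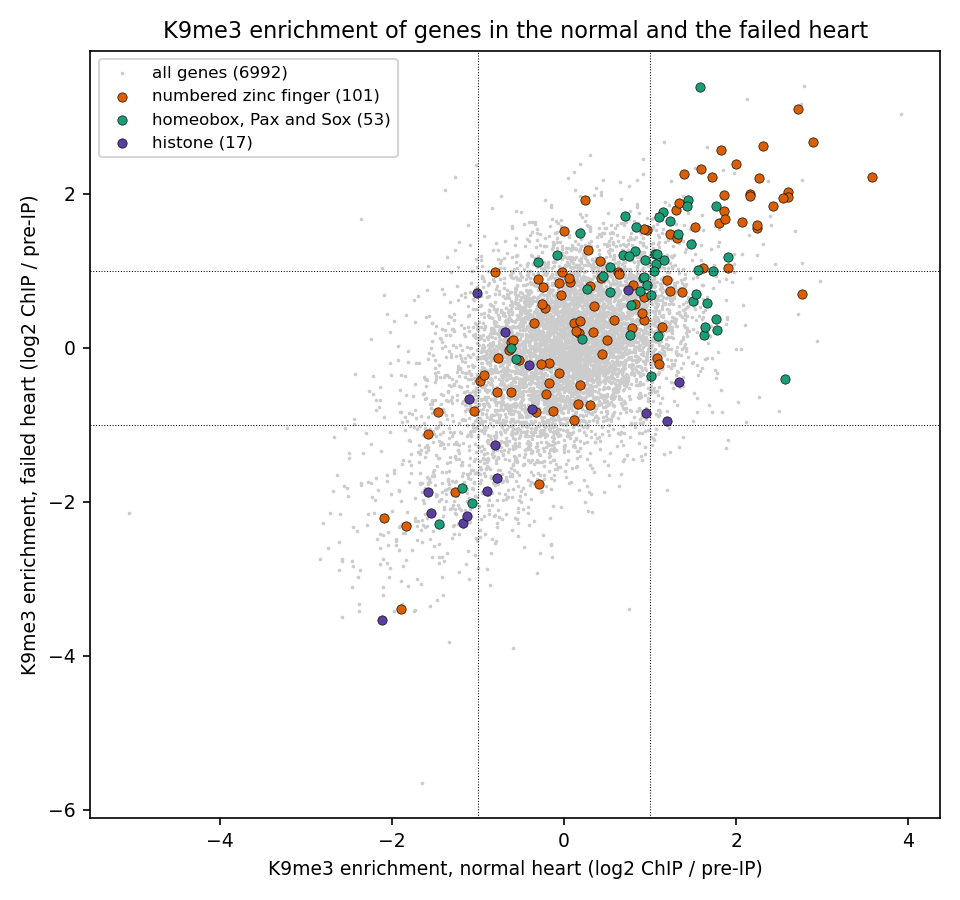
Each point is a gene that passed the level filter, with its K9me3 enrichment (log2 ChIP over pre-IP) in the normal heart on the x axis and in the failed heart on the y axis; dotted lines stand at -1 and 1. Numbered zinc finger genes (orange, 101) and homeobox, Pax and Sox genes (green, 53) fill much of the upper right corner, and most histone genes (purple, 17) lie in the lower left part.

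The 12 genes with the highest enrichment in both hearts held 10 zinc finger genes, 8 of them with a numbered symbol. Giot1, a zinc finger gene first named for its induction by gonadotropin, had the highest enrichment in the lower of its values: its K9me3 level was 8.99 in the normal heart and 8.29 in the failed one, over pre-IP levels of 6.21 and 4.89. This was an enrichment of 6.90-fold in the normal heart and 10.6-fold in the failed one. Prkca, the gene of protein kinase C alpha, which acts on cardiac contractility, was next. Its K9me3 levels were 10.29 and 10.10 and its pre-IP levels 7.53 and 6.94, for enrichments of 2.75 and 3.16. Both genes stood more than 4-fold above their own pre-IP in each heart.

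Several of these genes were measured at a further probe set. For Zfp90, a KRAB zinc finger gene, K9me3 levels were 9.56 in the normal heart and 9.39 in the failed one, over pre-IP levels of 6.67 and 6.72, and enrichments were 2.89 and 2.68. A second probe set of Zfp90 gave 3.05 and 2.50. Zfp68 had enrichments of 2.32 and 2.62, and 2.38 and 1.94 at a second probe set. Zfp267 had the largest enrichment of these genes in the normal heart, 3.59, and 2.23 in the failed heart, with 1.79 and 1.49 at its second probe set. Zscan20, which joins a SCAN domain to zinc fingers, had 2.12 and 3.23, and 1.80 and 1.72 at the second. All 4 therefore carried the mark at both of their probe sets.

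The remaining zinc finger genes among the 12 had 1 probe set each. Zfp709l1 had enrichments of 2.72 in the normal heart and 3.11 in the failed one, Zfp534l2 had 2.27 and 2.20, and Zfp110 had 2.60 and 2.02. Zfp426 had 2.16 and 2.00, and Zfp729b had 2.00 and 2.39. Mtmr1, a myotubularin-related phosphatase gene, was the other gene of the 12 that is no zinc finger gene besides Prkca, with 2.37 and 2.17 and a second probe set at 0.97 and 1.38.

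Taken as a class, 229 numbered zinc finger genes were measured, of which 101 passed the level filter. Their median enrichment was 0.44 in the normal heart and 0.45 in the failed one, beside 0.03 and 0.00 over all genes. Enrichment was above 0 in both hearts for 121 of them, 52.8% against 31.2% of all genes. The mark was carried in both hearts by 48, 21.0%, against 2.38% of all 14217 genes without the filter, and 8 genes, 3.49%, were low in both, against 4.04%. The carriers had K9me3 levels from 5.60 to 10.46 in the normal heart (median 8.12) and from 5.84 to 10.53 in the failed heart (median 8.03). Their pre-IP levels had medians of 6.18 and 6.19, and 2 of the 48 had a value at the floor.

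The class also had low pre-IP values: its median pre-IP level was 6.26 in the normal heart and 6.28 in the failed one, beside 6.61 and 6.64 over all genes. The K9me3 levels of the class lay 0.11 and 0.10 above the array median of 100 (0.10 and 0.063 above the median of all genes). With the mean of the other 7 ChIP marks of the same heart in place of pre-IP, its medians were 0.49 and 0.53, and 59 genes carried the mark. Zinc finger genes form families of similar sequence, and 3 of the 48 carriers were measured by probe sets whose identifiers mark probes shared with other transcripts. Of the second probe sets of 78 zinc finger genes, whatever the call at the first, 14 carried the mark, beside 2.25% of second probe sets over all genes. Their medians were 0.14 in the normal heart and 0.45 in the failed one.

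The class was not uniform. The 8 zinc finger genes low in both hearts included Zfp771, with enrichments of -1.90 in the normal heart and -3.40 in the failed one, and Zfp827, with -2.10 and -2.21. Zfp827 acts in telomere and chromatin maintenance, and its group of 8 also held Zfp512b, Zfp593 and Zfp628. The class was also split by position. Of 94 zinc finger genes with another numbered zinc finger gene as the next measured gene on the chromosome, 30 carried the mark, 31.9%, and their median enrichments were 0.93 and 0.84. Of the 135 others 18 carried it, 13.3%, with medians of 0.24 in each heart.

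Zinc finger genes outside the numbered symbols carried K9me3 too. Besides Giot1 and Zscan20, they included Zscan21, Zscan22 and Rbak, named here after their values were seen. Zscan22 had enrichments of 1.34 in the normal heart and 1.78 in the failed one.

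Homeobox, Pax and Sox genes, which encode transcription factors of embryonic patterning, had higher class medians than zinc finger genes: 0.94 in the normal heart and 0.84 in the failed one over 92 genes, of which 53 passed the level filter. Enrichment was above 0 in both hearts for 65 of them, 70.7% against 31.2% of all genes, and 21 carried the mark, 22.8% against 2.38%. The carriers came from each of the Hox clusters and from other families: Hoxa9, Hoxa10, Hoxb3, Hoxb7, Hoxc9, Hoxd3, Hoxd4, Hoxd8 and Hoxd9, with Dlx1, Emx2, Gbx2, Irx5, Lhx1, Nkx2-2, Nkx2-3, Otx1, Pou3f2, Pou3f3, Sox2 and Sox17. Of the 92 genes 14 had mRNA above the array median in both hearts, 15.2% against 60.5% of all genes. Of the 229 zinc finger genes 143 had, 62.4%, near the share of all genes.

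Pou3f2, a neural factor gene that did not pass the level filter, had enrichments of 4.01 and 1.32. Among the genes that passed, Hoxb7 had the highest mean enrichment of this class, 1.57 in the normal heart and 3.39 in the failed one. Its pre-IP level was 7.06 in the normal heart and 4.72 in the failed one, while its K9me3 level was not higher in the failed heart. Sox2, a factor of stem and neural cells, was more even, with K9me3 levels of 8.86 and 8.16, pre-IP levels of 7.10 and 6.32 and enrichments of 1.77 and 1.84. A second probe set of Sox2 gave 0.93 and 0.36. Over the class, 17 genes had a second probe set, and 1 of these carried the mark, with medians of 0.50 in the normal heart and 0.04 in the failed one. Over all genes 2.25% of second probe sets carried it, with medians of 0.02 and 0.00. For a list of this size the count was near that share. The higher median of the class in the failed heart was thus not seen at second probe sets. Sox12, Sox15 and Pitx3 were low in both hearts, with Sox12 at -1.45 and -2.29 and Sox15 at -1.07 and -2.02.

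Other developmental transcription factor genes outside this class also carried the mark, and were named after their values were seen. The forkhead genes Foxd3 (1.47 in the normal heart and 1.55 in the failed one) and Foxl2 (1.17 and 1.89) were among them. So were Zic1, Zic2 (2.45 and 1.09), the neurogenic gene Neurog2 (1.76 and 1.58), the forebrain gene Fezf2 (1.11 and 1.16) and the T-box gene Tbx2 (1.69 and 2.18). Tbx2 had 0.21 and 0.25 at a second probe set. Of the cardiac factor genes taken whatever their values, Gata4 had enrichments of 0.47 in the normal heart and 1.62 in the failed one, and Nkx2-5 had -0.46 and 0.34.

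Clustered protocadherin genes, which encode neuronal adhesion molecules in tandem arrays, were few, and 3 of the 9 measured passed the level filter. Their medians were 1.18 and 0.66, and 3 of 9 carried the mark, 33.3% against 2.38% of all genes. Of these carriers 2 passed the level filter. Pcdhb17 had 1.24 in the normal heart and 2.16 in the failed one, Pcdhb19 had 1.80 and 1.55, and Pcdhb22 had 1.29 and 1.60. Set against the array median of 100 without the pre-IP arrays, the class medians were -0.40 and -0.30, below 0.

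Neighbouring genes on a chromosome were compared in the same way. Of 156 neighbours of a carrying gene, both passing the level filter, 32 carried the mark as well, 20.5%, against 2.15% of the genes in any of the 3621 such pairs. For genes low in both hearts the shares were 10.5% and 5.0%. The 16 pairs in which both genes carried the mark included 5 of numbered zinc finger genes and 2 of homeobox genes. Zfp260, Zfp382 and Zfp146 formed a run of 3 on chromosome 1. Zfp260, known as a partner of GATA4 in cardiac hypertrophy, had enrichments of 2.43 in the normal heart and 1.84 in the failed one, and 2.16 and 1.68 at a second probe set. Zfp382 had 1.83 and 2.57, and Zfp146 had 1.59 and 2.32.

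Zfp68 lay beside Zfp157 (1.90 in the normal heart and 1.04 in the failed one), Zfp111 (1.31 and 1.79) beside Zfp61 (1.23 and 1.48), Zfp110 beside Zscan22, and Zfp534l2 beside Zfp933 (2.61 and 1.96). The homeobox pairs were Hoxa9 (1.16 and 1.14) with Hoxa10 (1.07 and 1.08) and Hoxd9 (1.91 and 1.18) with Hoxd8 (1.73 and 1.0). Pairs outside these classes included Fundc2 (1.33 and 1.02), the coagulation factor VIII gene F8 (1.80 and 1.37) and Mtmr1. At a second probe set Fundc2 stood at -1.28 and -1.66, on the other side of 0.

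The promoters of a zinc finger pair and of a homeobox pair are shown as the sequences at the starts of neighbouring carriers, beside their CpG content. They are the 250 bases before the first listed start in RefSeq on GRCr8, 5′ to 3′ on the gene's strand, and capitals mark CpG dinucleotides. All 4 genes lie on the plus strand: Zfp260 at chr1:94469611-94469860, Zfp382 at chr1:94504844-94505093, Hoxd9 at chr3:80007756-80008005 and Hoxd8 at chr3:80014973-80015222.
Zfp260: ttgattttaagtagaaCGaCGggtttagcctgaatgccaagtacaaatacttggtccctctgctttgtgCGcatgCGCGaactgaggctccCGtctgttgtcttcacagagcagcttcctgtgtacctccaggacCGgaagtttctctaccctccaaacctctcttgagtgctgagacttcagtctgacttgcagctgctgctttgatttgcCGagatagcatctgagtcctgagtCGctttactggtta
Zfp382: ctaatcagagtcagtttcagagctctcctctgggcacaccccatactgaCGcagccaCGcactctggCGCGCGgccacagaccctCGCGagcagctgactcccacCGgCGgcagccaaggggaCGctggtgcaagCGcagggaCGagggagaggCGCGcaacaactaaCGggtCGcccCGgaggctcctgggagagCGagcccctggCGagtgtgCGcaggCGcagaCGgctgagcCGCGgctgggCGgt
Hoxd9: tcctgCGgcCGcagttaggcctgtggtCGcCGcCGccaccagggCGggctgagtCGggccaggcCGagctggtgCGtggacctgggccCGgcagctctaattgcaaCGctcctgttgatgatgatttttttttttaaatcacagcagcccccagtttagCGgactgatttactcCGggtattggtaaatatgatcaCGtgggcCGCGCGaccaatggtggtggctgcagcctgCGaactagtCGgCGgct
Hoxd8: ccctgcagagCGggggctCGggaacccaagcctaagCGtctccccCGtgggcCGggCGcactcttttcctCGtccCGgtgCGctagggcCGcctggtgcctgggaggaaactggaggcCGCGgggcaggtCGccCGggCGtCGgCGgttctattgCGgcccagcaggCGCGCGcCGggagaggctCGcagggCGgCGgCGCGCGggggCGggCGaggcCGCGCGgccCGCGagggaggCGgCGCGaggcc
The windows hold 9 CpG in Zfp260, 25 in Zfp382, 20 in Hoxd9 and 38 in Hoxd8. An observed CpG content of at least 0.6 of that given by base composition was found in the window of 92.3% of the homeobox, Pax and Sox genes that carried the mark (12 of 13 with a promoter in the table). It was found in 78.7% of the whole class (61 genes), 58.7% of zinc finger genes (184), 62.0% of the genes carried in both hearts and 60.8% of all 11700 genes with a promoter. The share among the 163 carriers was thus near that of all genes. Where the array's probes lie relative to these windows was not analysed here.

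Histone genes had the lowest medians of the 29 classes, -0.80 in the normal heart and -0.96 in the failed one over 23 genes. Enrichment was below 0 in both hearts for 14 of them, 60.9% against 28.5% of all genes, and 7 were low in both, 30.4% against 4.04%. None carried the mark, which for a list of this size is near the 2.38% of all genes. Hist4h4, which encodes histone H4, had K9me3 levels of 8.09 and 6.78 over pre-IP levels of 10.22 and 10.32, and enrichments of -2.12 and -3.54. The linker histone genes H1f2 (-1.55 and -2.14) and H1f4 (-1.17 and -2.28) were also low in both. Among members past the filter, H2bl1 (0.75 and 0.74) and H2al2l (1.33 and -0.44) had the highest mean enrichment, and H2ap, which did not pass, had 2.20 and 0.23. Clustered histone genes are near-identical copies, so probes may take signal from several. The pre-IP levels of the class were high, with medians of 7.44 and 7.91. Without pre-IP the K9me3 levels of the class lay above the array median of 100, by 0.52 and 0.19, and with the other 7 marks in place of pre-IP the medians were -1.09 and -1.15.

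Besides histone genes, the genes with the lowest enrichment in both hearts were of mixed kinds. Nudt8, a mitochondrial Nudix hydrolase gene, had K9me3 levels of 5.39 and 5.47 over pre-IP levels of 8.23 and 8.21, for enrichments of -2.84 in the normal heart and -2.75 in the failed one. Tnfsf13, which encodes the lymphocyte cytokine APRIL, had -2.62 and -2.89, and Heyl, a target of Notch signalling, had -2.75 and -2.60. Camta2, a co-activator of the hypertrophic response in heart muscle, had -2.59 and -2.75. Ubald2 (-2.59 and -2.77), Pip5k1c (-2.61 and -2.52) and the mitochondrial nuclease gene Endog (-2.47 and -2.77) were next. Sirt4, a mitochondrial sirtuin gene, had -2.58 and -3.50, but its second probe set had 0.82 and -0.08. The second probe sets of Heyl (-1.14 and -1.58) and Tnfsf13 (-0.82 and -2.22) were on the same side of 0.

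No gene carried K9me3 in both hearts among the collagen (41), adult sarcomere (19), glycolysis (18), cytosolic ribosomal protein (48), fatty acid oxidation (30), chemokine and interleukin (89), neuron (29), liver (27) or germ cell (25) genes. The share over all genes was 2.38%, so a count of 0 in lists of this size is near the background and is not a result about these classes. The mark was also carried by none of the 31 olfactory and vomeronasal receptor genes, whose medians were 0.34 and 0.42. For that class the order of the medians depended on pre-IP, since the K9me3 levels alone lay at -0.47 and -0.39 from the array median. Of 89 chemokine and interleukin genes 8 were low in both hearts, 8.99% against 4.04% of all genes, among them Ccr10 (-2.47 and -3.11) and Il17re (-2.69 and -1.86). Immediate early genes, which respond within minutes to stress, had 3 low in both of 29, 10.3%, including Junb (-1.28 and -1.99) and Jund (-1.22 and -2.42).

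**Figure D2:**
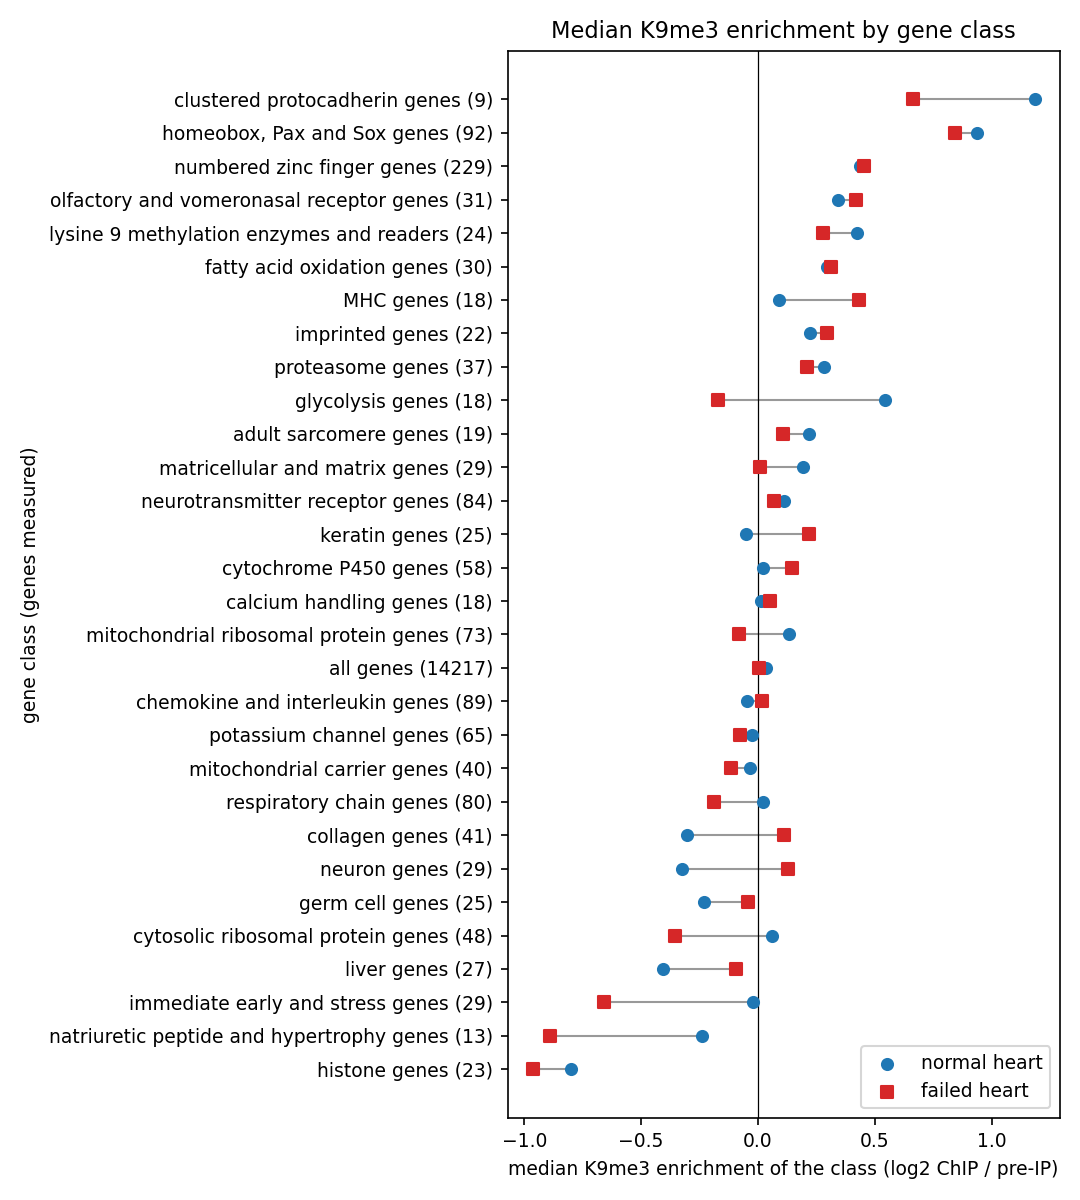
Median K9me3 enrichment (log2 ChIP over pre-IP, x axis) of each of the 29 gene classes and of all genes (y axis, with the number of genes measured), in the normal heart (blue circles) and the failed heart (red squares). Homeobox, Pax and Sox genes and numbered zinc finger genes lie at 0.94 and 0.84 and at 0.44 and 0.45, and histone genes lie lowest at -0.80 and -0.96.

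Genes of enzymes and readers of lysine 9 methylation were measured as well, in a list that also holds DNA methyltransferases and histone deacetylases. Of the 24 genes 1 carried the mark in both hearts, 4.17%, which for a list of this size is near the 2.38% of all genes. It was Cbx5, which encodes the HP1 alpha reader of the mark. Cbx5 had K9me3 levels of 7.97 and 7.91, pre-IP levels of 6.35 and 6.83 and enrichments of 1.62 and 1.08. Jmjd1c had 1.39 in the normal heart and 0.82 in the failed one. Trim28 (0.62 and 0.67), Setdb1 (0.56 and 0.32) and Ehmt2 (0.60 and 0.48) were mildly enriched in each heart. Enrichment was above 0 in both hearts for 8 of the 24 genes, 33.3% against 31.2% of all genes. It was below 0 in both for 3, among them Kdm4d (-1.76 and -0.11) and Kdm3b (-0.68 and -0.18). The mRNA of Cbx5 was 0.06 higher, that of Setdb1 0.50 lower and that of Trim28 0.39 higher in the failed heart on the log2 scale, each less than 2-fold.

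Other marks were read at the same genes. They were measured over the same pre-IP arrays, so a high or low pre-IP value moves all of them together, and each is given with its own values. The source label of the normal H4ac sample reads as genomic DNA before immunoprecipitation and gives no age, while its title names acetylated histone H4. It was used as H4ac, also in the mean of the other 7 marks. At the 229 zinc finger genes K20me3, another mark of heterochromatin, had medians of 0.22 in the normal heart and 0.25 in the failed one and was carried in both by 28 genes, 12.2% against 1.95% of all genes. K9me2 had medians of 0.13 and 0.08 there and was carried by 12, 5.24% against 4.83% of all genes. Acetylated histone H3 (H3ac) had -0.34 and -0.40, and was low in both hearts at 41 of the genes, 17.9% against 7.24% of all genes. At the 48 that carried K9me3, the medians were 1.24 and 1.42 for K20me3, 0.33 and 0.44 for K9me2 and -0.97 and -1.08 for H3ac. K4me3, a mark of active promoters, had medians of 0.67 and 0.54 there and was carried by 6 of the 48, 12.5% against 1.37% of all genes. These 48 were chosen over the same pre-IP arrays, which favours genes of low pre-IP. Set against the median level of all genes without pre-IP, K4me3 lay at -0.03 and -0.07 and K9me2 at -0.17 and -0.02. On that measure neither was raised, while K20me3 lay at 0.60 and 0.88 and H3ac at -1.71 and -1.69.

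Homeobox, Pax and Sox genes had another make-up. K20me3 had medians of 0.24 and 0.23, as at zinc finger genes. None of the 92 genes carried it in both hearts, which for a list of this size is near the 1.95% of all genes. At the 21 genes that carried K9me3 its medians were 0.36 and 0.59, and those of K9me2 were -0.03 and 0.09. Acetylated histone H4 (H4ac) had medians of -0.76 and -0.95 over the class, and K27me2 had -0.55 and -0.91. The active-promoter marks K4me2 (0.36 and 0.45) and K4me3 (0.45 and 0.44) were above 0. K4me2 was carried in both hearts by 12 genes, 13.0%. For a list of this size that was near the share of all genes, 1427 of 14217. Histone genes had K4me2 medians of 1.59 and 1.85, with 16 of 23 carrying it, H3ac medians of 0.91 and 0.57 and K20me3 medians of -0.83 and -0.81. Their K20me3 levels without pre-IP lay 0.66 and 0.53 above the median of all genes. Over the 163 genes that carried K9me3, K20me3 had medians of 0.72 and 0.95, and over the 339 that were low, K4me2 had 1.30 and 1.51 and K9me2 had -1.55 and -1.66. Both groups were chosen over the same pre-IP arrays, and the choice of low genes favours high pre-IP. At the low genes the K9me2 levels without pre-IP lay 0.45 and 0.57 above the median of all genes, and those of K4me2 3.46 and 3.82 above.

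**Figure D3:**
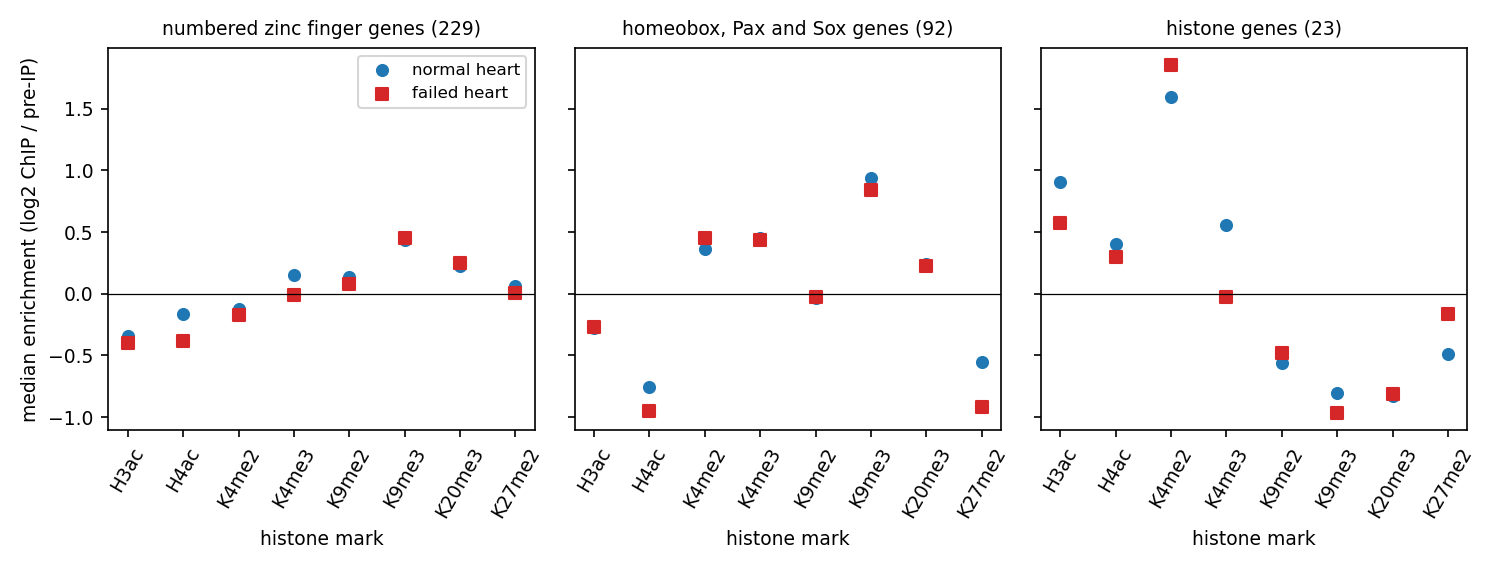
Median enrichment (log2 ChIP over pre-IP, y axis) of the 8 histone marks (x axis) at numbered zinc finger, homeobox, Pax and Sox, and histone genes, in the normal heart (blue circles) and the failed heart (red squares). K9me3 has the highest median of the 8 marks at the first 2 classes, and at histone genes it is below 0 while K4me2 reaches 1.59 and 1.85.

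The comparison of the hearts asked which genes differed in K9me3 between failed and normal. Enrichment was higher by 2-fold or more in the failed heart at 633 genes, 9.05% of the 6992 that passed the filter, and lower by as much at 798, 11.4%. Which direction held more genes depended on the scaling, since 778 were higher and 709 lower with the values as deposited, and 1035 and 1005 after quantile normalization. A part of these differences came with the genomic DNA: the pre-IP level itself was 2-fold higher in the failed heart at 4.09% of the genes and lower at 3.75%. Without pre-IP, the K9me3 levels were 2-fold higher at 5.18% and lower at 7.14%. Of the 633 genes, 217 also had a K9me3 level at least 2-fold higher, and 141 had a pre-IP level at least 2-fold lower. Of the 798 genes, 295 had a lower K9me3 level, and 156 a higher pre-IP level. The other marks differed by 2-fold in either direction at between 11.3% (H4ac) and 25.1% (K9me2) of their genes, and K9me3 at 20.5%.

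Differences between the hearts were looked for at a second probe set of the same gene. Of 111 genes that were higher in the failed heart and had a second probe set past the filter, 7 were higher there too, 6.31%, beside 8.36% of all 1436 second probe sets. For genes lower in the failed heart the count was 23 of 146, 15.8%, beside 14.1%. The same comparison for genes that carried K9me3 in both hearts gave 16 of 41, 39.0%, beside 2.37%, and for genes low in both 17 of 58, 29.3%, beside 7.52%. Pearson's r between the pair of probe sets, across the 1436 genes, was 0.35 for the mean enrichment and 0.03 for the difference. The named differences below are therefore those of single probe sets.

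Wfs1, the Wolfram syndrome gene of the endoplasmic reticulum, had the largest of the higher values that also held in the K9me3 levels alone. Its K9me3 level was 5.37 in the normal heart and 8.43 in the failed one and its pre-IP level 7.73 and 6.76, a difference in enrichment of 4.04. Tmem63b, a mechanosensitive channel gene, had nearly equal pre-IP levels of 7.05 and 7.07 and K9me3 levels of 4.94 and 8.10, a difference of 3.15, with -0.15 at a second probe set. Sncaip, which encodes the synuclein partner synphilin, had K9me3 levels of 5.63 and 8.83 and a difference of 2.66. Gpd1, of the glycerol phosphate shuttle, had 3.32 and 6.38 over pre-IP levels of 8.39 and 8.52, so that its enrichment was below 0 in both hearts, and its second probe set had a difference of -0.42.

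For the remaining 6 of the 10 largest, the pre-IP level was more than 2-fold lower in the failed heart. C20h22orf15 differed by 3.48, Acsf3, a mitochondrial fatty acid enzyme gene, by 3.44 and Kctd18 by 3.40, with -0.98 at a second probe set of Kctd18. Tefm, a mitochondrial transcription factor gene, differed by 2.78, Unc50 by 2.72 and Scpep1 by 2.70.

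Gstt2, a glutathione transferase gene, had the largest of the lower values. Its K9me3 level was 8.26 in the normal heart and 4.23 in the failed one, its pre-IP levels were 7.51 and 7.62, and the enrichment differed by -4.14, with -0.86 at a second probe set. C3h11orf96 had K9me3 levels of 8.97 and 5.94 over pre-IP levels of 9.56 and 9.84, a difference of -3.32, with -0.35 at a second. The neural factor gene Sox1 had K9me3 levels of 9.08 and 7.34 and pre-IP levels of 6.50 and 7.74, a difference of -2.98. The other 7 were Sowaha (-3.18), the exportin gene Xpo4 (-3.10), Ube2ql1 (-3.08), Lnx2 (-2.91), Nop9 (-2.63), the co-repressor gene Rcor3 (-2.60) and Exoc2 of the exocyst (-2.58).

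**Figure D4:**
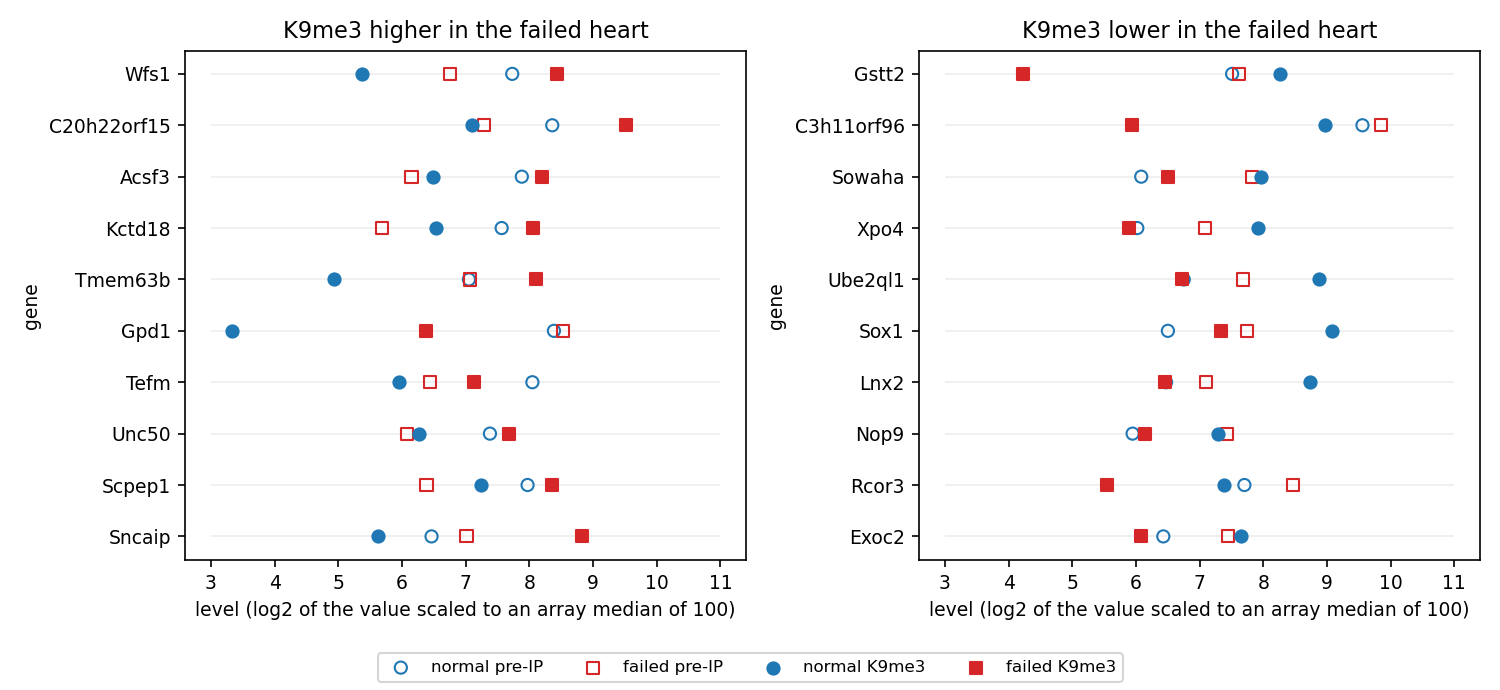
Levels on the 4 arrays (x axis, log2 of values scaled to an array median of 100) of the 10 genes with the largest higher (left) and lower (right) K9me3 enrichment in the failed heart (y axis); filled symbols are K9me3 and open symbols pre-IP, in the normal heart (blue circles) and the failed heart (red squares). At Tmem63b the pre-IP levels of 7.05 and 7.07 coincide, whereas at Acsf3 they differ by -1.73.

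Genes known from heart failure were taken whatever their values, and 15 of 16 were measured. None carried K9me3 in both hearts, which for a list of this size is near the 2.38% of all genes. Differences in mRNA are also on the log2 scale. Myh7, the slow myosin heavy chain gene whose mRNA was 1.61 higher in the failed heart, had K9me3 levels of 8.07 in the normal heart and 5.22 in the failed one over pre-IP levels of 8.22 and 7.93. Its enrichment differed by -2.57, with -1.0 at a second probe set. Myh6, the fast myosin gene, had enrichments of -0.18 and 0.04, with an mRNA difference of -1.03. Acta1, the skeletal actin gene of the fetal programme, had K9me3 levels of 6.59 and 8.19 over pre-IP levels of 8.14 and 8.19, a difference of 1.54, while its mRNA was 1.92 higher. At Myh7 and Acta1, both with more mRNA in the failed heart, the mark therefore differed in opposite directions.

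Nppb, the B-type natriuretic peptide gene, was low in both hearts, with -1.27 in the normal heart and -2.09 in the failed one, and its mRNA was 2.46 higher. Ankrd1, a stress-responsive sarcomere gene, was also low in both, with -1.04 and -1.25 and an mRNA difference of 2.15, though its second probe set had 0.25 and -1.17. Nppa had -0.24 and -0.89 with an mRNA difference of 4.30, and Ccn2, the connective tissue growth factor gene, had 0.54 and -0.93 with 3.04. Cpt1b, of fatty acid import into mitochondria, had 1.38 and -0.49, a difference of -1.87, with an mRNA difference of -0.69. The matrix gene Postn had the largest mRNA difference of the list, 4.78, and enrichments of 0.64 and 0.49. Gata4 differed by 1.15 at its own probe set and by -1.81 at a second. Col1a1 (-1.17 and -0.42), Col3a1 (-0.06 and 0.54), Atp2a2 (-0.33 and -0.62) and Pdk4 (-0.02 and 0.41) differed by less than 2-fold.

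By class, 9 of 23 histone genes had lower K9me3 in the failed heart, 39.1%, against 15.8% of all 14217 genes, and 2 were higher, against 13.1%. For 5 of the 9 the K9me3 level without pre-IP was 2-fold lower as well. The median difference of the class was -0.90, beside -0.06 over all genes, and -0.42 for the K9me3 level without pre-IP. H2bc8 had 0.18 in the normal heart and -2.14 in the failed one, and H2bc1 had 1.19 and -0.95. The macroH2A genes went the other way, with Macroh2a1 at -1.02 and 0.71 and Macroh2a2 at -1.03 and 0.33.

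Classes of energy metabolism are set beside the shares over all genes, 15.8% lower and 13.1% higher. Fatty acid oxidation genes had 2 of 30 lower and 2 higher, 6.67% each way. Mitochondrial carrier genes had 7 of 40 lower, 17.5%, and 6 higher, 15.0%, near those shares, and 2 and 1 of them passed the level filter. Glycolysis genes had 5 of 18 lower, 27.8% against 15.8% of all genes, and none higher, and 2 of the 5 were also lower in the K9me3 level without pre-IP. The class had medians of 0.54 in the normal heart and -0.17 in the failed one. Mitochondrial ribosomal protein genes had 14 of 73 lower, 19.2%, and 2 higher, and respiratory chain genes 12 of 80 lower, 15.0%, and 3 higher. The shares of lower genes in the last 2 classes were near those of all genes, while their shares of higher genes, 2.74% and 3.75%, were below 13.1%. That background is unlike, since 52 of the 73 and 71 of the 80 passed the level filter, against 6992 of all 14217 genes. Past the filter 9.05% of all genes were higher and 11.4% lower. In the 2 classes 0 and 3 members past it were higher, and 9 in each were lower. Sdha, of succinate dehydrogenase, was one of the 3 higher genes, with 0.21 and 1.70. Cytosolic ribosomal protein genes had 5 of 48 lower, 10.4%, and none higher. Their median in the failed heart, -0.36, was 0.23 after quantile normalization.

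Counted over all measured members, collagen genes and neuron genes had more higher than lower members. Of 41 collagen genes 9 were higher in the failed heart, 22.0%, and 2 lower, with medians of -0.30 and 0.11, and 4 of the 9 were also higher in the K9me3 level. Of 29 neuron genes 8 were higher, 27.6%, and 2 lower, and of 18 MHC genes 5 were higher, 27.8%, and 1 lower. The shares over all genes were 13.1% higher and 15.8% lower. Among members past the level filter, 2 collagen, 0 neuron and 0 MHC genes were higher, and 0, 2 and 1 were lower. The higher neuron and MHC genes were thus all genes that did not pass the filter. Of the 18 MHC genes, 7 were measured by probe sets with shared probes and 6 had a value at the floor. Zinc finger genes were close to all genes, with 26 higher, 11.4%, and 35 lower, 15.3%. Homeobox, Pax and Sox genes had 13 each way.

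The specimens may differ in their cells, and in such bulk tissue fewer cells of a type and less chromatin modification per cell cannot be told apart. The summed scaled mRNA of 8 fibroblast markers was 22108 in the normal heart and 44725 in the failed one, and that of 9 macrophage and leukocyte markers 2483 and 9976, with Cd3e at the floor. The sums of 4 atrial markers, Nppa among them, were 1527 and 24638, and those of 4 red blood cell markers 1229 and 4359. A sum follows its most abundant members. Single markers with mRNA 2-fold higher in the failed heart numbered 3 for fibroblasts and 4 for macrophages and leukocytes, with 0 lower in each. Of the atrial markers 2 were higher and 1 lower, and of the red blood cell markers 1 was higher and 1 lower. All 6 smooth muscle markers had mRNA levels lower by 2-fold or more in the failing ventricle, with sums of 5833 and 2492. K9me3 enrichment at the fibroblast markers had medians of -0.21 and -0.01, with 1 marker higher and 1 lower. The part of these shifts in the K9me3 differences was not tested.

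Across genes, Spearman's rho of the K9me3 difference with the mRNA difference was -0.01 over the 6992 genes, and 0.00 for the K9me3 level without pre-IP. Genes with higher K9me3 in the failed heart had a median mRNA difference of 0.19, those with lower K9me3 0.18, and all that passed 0.20. Of the 163 genes that carried the mark in both hearts, 98 had mRNA above the array median in both, 60.1% against 68.8% of all genes that passed. The figure for the 339 low genes was 55.8%.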

How the data were processed

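Normal and failed left ventricles of Dahl rats were measured on Affymetrix rat expression arrays. The authors deposited linear intensity, with 1 value for each of 31099 probe sets (57 of them controls) on every array. The trimmed means of the 4 arrays were all about 500.0, as global scaling by the authors would give, but the summarising tool and its version are not given in the sources used here. Per the labels' protocols, DNA was amplified and labelled before hybridization.

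With Python 3.11.15, numpy 2.4.6, pandas 2.3.3 and scipy 1.17.1, arrays were brought to a common median of 100, lower values were raised to a floor of 10 and the log2 was used. The 20826 probe sets of exactly 1 gene were kept and named through the platform annotation. Of these, 20758 matched the current gene table. A gene was represented by its probe set of highest mean mRNA, which gave 14217 genes, 4525 with several probe sets. A call is a difference of 1 on the log2 scale. Calls over all genes used a level filter of 100 on the mean of the 4 arrays, and counts within a class used every measured gene.

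Gene classes, cell markers and the members were chosen with earlier results of these data known. The named genes are, among genes with a proper symbol, past the filter and with none of the 4 arrays at the floor: the 12 highest by their lower heart, the 8 lowest, and the 10 largest differences each way that also reached 2-fold in the K9me3 level. The 2 highest and 2 lowest of each class and 16 heart failure genes were added, as were neighbours and others chosen after their values were seen. Neighbours are adjacent measured genes in the RefSeq gene table of GRCr8. Promoters of 250 bases came from RefSeq on that build, and arrays and promoters were joined by gene only. Counting was tested on simulated data. Alternatives were other scalings, floors, filters, treatments of probe sets and treatments of pre-IP. A planned count of zinc fingers in the proteins was not run.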

Additional observations from a re-analysis of the deposited data

How the results depend on the processing

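With 1 array per group no replicate could be left out. No paired analysis was possible because each group holds 1 array. The counts depended most on pre-IP and the level filter. Genes carrying K9me3 in both hearts (163) numbered 347 after quantile normalization, 338 without a level filter, 54 with a filter of 200 and 1743 without pre-IP (K9me3 levels against the array median). Genes low in both (339) numbered 575, 206 and 1 under the last 3. Genes higher in the failed heart (633) numbered 1035 after quantile normalization, 1869 without a filter, 121 with a filter of 200 and 362 without pre-IP or with the mean pre-IP of both hearts. Genes lower (798) numbered 2244, 276 and 499 under the same settings from the filter on. The zinc finger medians were 0.19 and 0.23 with a floor of 50 and 0.11 and 0.10 without pre-IP. Without pre-IP the medians of histone genes were 0.52 and 0.19, with 3 low in both. Medians also changed sign without pre-IP for olfactory and vomeronasal receptor genes (-0.47 and -0.39) and protocadherin genes (-0.40 and -0.30). In the failed heart they did so for MHC (-0.41), cytosolic ribosomal protein (2.66), immediate early (0.73) and imprinted genes (-0.094). After quantile normalization the cytosolic ribosomal median of the failed heart was 0.23. With the mean of all probe sets the Gata4 difference was -0.33. Alternatives chosen after seeing the data were the mean of the other 7 marks in place of pre-IP, a filter on pre-IP only and leaving out probe sets with shared probes. The first gave 252 carried, 273 higher and 503 lower genes, 35 carrying homeobox, Pax and Sox genes, 12 low histone genes and a collagen median of 0.062 in the normal heart. The filter on pre-IP only gave 65 carried genes. Without shared probes all 7 counts stayed within 1.5 times. Enrichments of single genes within a heart were not recomputed without pre-IP. The causes were not tested. Signal over background was not analysed, and the number of arrays limits the precision.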
